A study of Mus musculus with 16 samples.

Results

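The interaction of panobinostat and trastuzumab was measured for every mouse gene that had a read count in all 16 tumour libraries of the series, 23354 of the 24681 gene symbols listed. It is the part of a gene's response to both drugs that the sum of its 2 single-drug responses leaves over, on a log2 scale. Each tumour came from human AU565(pv) cells, a HER2-amplified breast cancer line, implanted in the mammary fat pad of a SCID host, which lacks mature T and B lymphocytes and keeps natural killer (NK) cells and myeloid cells. Vehicle mice received D5W (dextrose in water) and PBS, and trastuzumab mice 10 mg/kg of the antibody with D5W. Panobinostat mice received 15 mg/kg on days 0 and 1 with PBS, and combination mice both drugs, all by intraperitoneal injection. Each of the 4 groups held 4 mice, treatment began at a tumour size of 20 to 25 mm2, and tumours were collected on day 2. The labels place the trastuzumab dose on day 0 in one field and on day 1 in another, so its exposure time is uncertain. All tumours came from 1 cell line, and each library carried its own mouse number.

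Trastuzumab binds HER2 on the tumour cell and blocks its signalling, and its Fc part can engage Fc gamma receptors on NK cells and macrophages. Panobinostat inhibits histone deacetylases, enzymes that remove acetyl groups from histones and other proteins, and so changes transcription in tumour and host cells alike. Reads were counted on mouse genes in a tumour of human cells. The values are taken to reflect mostly the host tissue in the tumour: macrophages, fibroblasts, fat, vessels and NK cells. How human reads were handled is not given, and their share in conserved genes was not tested. In such bulk samples fewer cells of a type and less RNA per cell cannot be told apart.

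For each gene the expected log2 level under both drugs was the vehicle level plus the trastuzumab difference plus the panobinostat difference. The interaction is the observed combination level minus this expectation. A value of 1 means that the combination stood 2-fold above the product of the single-drug ratios, and a value of -1 that it stood 2-fold below it. This is additivity on a log scale. A gene whose drug effects simply add in counts can depart from it, and the linear scale is therefore given for the named genes. The trastuzumab, panobinostat and combination differences all use the same 4 vehicle libraries.

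Total counts over the genes used ranged from 4848102 to 8140782 per library. The 10 most abundant genes took 5.37% to 7.82% of them, and each library's median correlation with the others lay between 0.962 and 0.978. Among markers of the lymphocytes that SCID mice lack, Cd3d, Cd3g, Ms4a1 and Cd79a reached at most 0.76 CPM (reads scaled to a common library total by TMM) in any library. Other listed markers were present: the 12 T cell markers in the table summed to 15.5 to 74.6 CPM, with Cd28 at 0.38 to 13.1 CPM, and the 9 B cell markers to 95.7 to 172 CPM, with Cd22 at 6.9 to 23.2 CPM. Ncr1, a receptor of NK cells, was present in every library at 2.68 to 15.8 CPM, and the macrophage receptor Csf1r at 438 to 655 CPM. Fat was uneven within every group, with summed adipocyte markers from 5690 to 23100 CPM in vehicle, 5310 to 28700 in trastuzumab, 4990 to 31300 in panobinostat and 6770 to 19700 in combination libraries. All 20 adipocyte markers had counts. A fit with the adipocyte score as a covariate also called 0 genes for the interaction. Whether human reads add to conserved genes such as Erbb2 (82.1 to 226 CPM) or Krt8 (248 to 475 CPM) was not tested.

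The promoters of 3 genes that the results turn on are printed first, each as the 250 bases before the annotated start. Cxcl10 encodes a chemokine induced by interferons, Stat2 a transcription factor of the type I interferon pathway, and Cyp1b1 a cytochrome P450 known as a target of the aryl hydrocarbon receptor. Capitals mark the match to the core of the interferon-stimulated response element (GAAA, 2 bases of any kind, GAAA) in the first 2 and to the xenobiotic response element core, GCGTG, in the third, each on either strand. The sequences are from RefSeq, build GRCm38.p6, written 5′ to 3′ on the strand of the gene.
Cxcl10 (chr5:92348890-92349139, minus strand): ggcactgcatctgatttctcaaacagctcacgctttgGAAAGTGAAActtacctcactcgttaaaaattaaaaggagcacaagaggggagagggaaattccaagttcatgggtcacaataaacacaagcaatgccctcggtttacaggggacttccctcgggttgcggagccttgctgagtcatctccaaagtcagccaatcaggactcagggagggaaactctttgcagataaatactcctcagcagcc
Stat2 (chr10:128270248-128270497, plus strand): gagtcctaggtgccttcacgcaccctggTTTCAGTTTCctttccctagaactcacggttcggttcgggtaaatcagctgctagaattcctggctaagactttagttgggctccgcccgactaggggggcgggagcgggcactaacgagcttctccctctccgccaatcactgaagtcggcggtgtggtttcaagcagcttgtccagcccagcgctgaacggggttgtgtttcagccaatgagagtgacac
Cyp1b1 (chr17:79715062-79715311, minus strand): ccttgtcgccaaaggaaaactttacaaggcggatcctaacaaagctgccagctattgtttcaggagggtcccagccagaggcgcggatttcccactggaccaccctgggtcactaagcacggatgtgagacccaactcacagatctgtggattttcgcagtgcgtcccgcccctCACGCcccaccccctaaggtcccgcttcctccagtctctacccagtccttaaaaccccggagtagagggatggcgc
The matches begin 213 bases before the start in Cxcl10, 222 in Stat2 and 76 in Cyp1b1. Of 32851 promoters of the same length, 2.98% hold the interferon element core and 28.2% the short xenobiotic element core. The gamma-activated site, TTCNNNGAA, has no match in these windows of Cxcl10 and Stat2 and occurs in 7.02% of all promoters. A match is a description of the letters and not of a factor bound there. Of the 63 genes named by rule, 46 had a promoter entry.

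No gene passed the test for an interaction. After a filter on low counts, 15610 of the 23354 genes were tested with edgeR's quasi-likelihood F test, and at a Benjamini-Hochberg adjusted p under 0.05 the percentage called was 0. The smallest unadjusted p over all genes was 0.000957, which became 0.9999 after adjustment (AL591207.1). DESeq2 and limma voom on the same genes also called 0. At an unadjusted p under 0.05, edgeR counted 279 genes, 1.79% of those tested, DESeq2 206 and limma voom 274. Evenly spread p-values would give 780. Of the 279, 150 (0.961%) lay above the sum of the single-drug effects and 129 (0.826%) below it.

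The interaction values were centred close to 0. Their median was -0.01, 7499 genes were positive and 8111 negative, and 5% of genes lay below -0.44 and 5% above 0.50. The standard error (SE) of the interaction, which draws on all 4 groups, had a median of 0.25 on the log2 scale, against 0.18 for a comparison of 2 groups. A gene that misses the threshold is not shown to respond additively, so each gene's 95% interval was computed from its SE. The interval lay within 1 log2 unit of 0, that is within a 2-fold departure in either direction, for 11397 genes (73%). It lay within 2 log2 units for 15076 genes (96.6%), and for 0 genes was it wholly beyond 1 unit.

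The level of a gene set how closely a departure could be bounded. Among 10862 genes with a mean of at least 10 CPM, 9765 (89.9%) had an interval within 2-fold, and the median half-width was a factor of 1.36. Among the 4748 genes below 10 CPM, only 1632 (34.4%) did. A 2-fold departure was therefore outside the interval for most well-expressed genes, and for most low genes it was not.

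**Figure D1:**
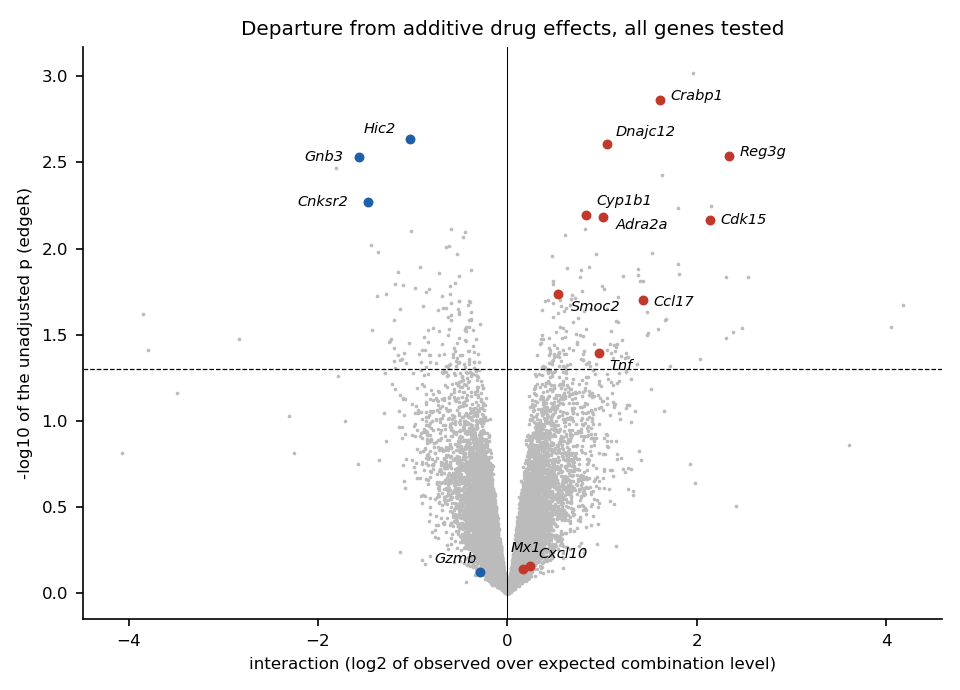
Each point is 1 of the 15610 genes tested, with the interaction (log2 of the observed over the expected combination level) on the x axis and -log10 of edgeR's unadjusted p on the y axis. Labelled genes are in red where the value is positive and in blue where it is negative, and the dashed line marks an unadjusted p of 0.05, which 279 genes passed and which 0 genes passed after adjustment.

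The genes that responded to the drugs together were looked at first. Against vehicle, the combination had 265 genes higher (1.7% of those tested) and 78 lower (0.5%) at the adjusted threshold, panobinostat alone 22 higher (0.141%) and 8 lower (0.0512%), and trastuzumab alone 0 in edgeR, with 549 genes at an unadjusted p under 0.05 (3.52%) and 12 called by DESeq2. For the 265 genes that rose under the combination, the median difference from vehicle was 0.33 with trastuzumab, 0.72 with panobinostat and 1.19 with both, on the log2 scale. The sum of their single-drug differences had a median of 1.06, and their interaction a median of 0.05, with quartiles of -0.11 and 0.22. These genes were chosen by the combination level, which enters the interaction, so their direction carries no test.

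Of these 265 genes, 6 (2.26%) had an unadjusted interaction p under 0.05, near the 1.79% of all genes. Above the sum were Ccl17, a chemokine of dendritic cells, Cd86, a co-stimulatory ligand on antigen-presenting cells, Cyp1b1, Itih2 and the predicted gene Gm17131, and below it was Gpr31b. For the 78 genes that fell, the median differences were -0.18, -0.54 and -0.67, the sum -0.76 and the interaction -0.03. The 4 of them (5.13%) at an unadjusted p under 0.05 were Smoc2 and Gm12895 above the sum, and Gamt and Mcc below it. The count of genes called against vehicle depends on the fit, as given in the closing section, while the count called for the interaction was 0 in each of the 26 alternatives run.

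Of the 30 gene lists, the interferon lists had the highest median difference between combination and vehicle. Type I interferon induces genes such as Mx1 and the Ifit family, and interferon gamma induces Cxcl9, Cxcl10, Cxcl11 and the Gbp family. In the type I list, 22 of 30 tested genes were called higher in the combination, and in the interferon gamma list 19 of 25, against 1.7% of all genes. Their median interactions were 0.11 and 0.34, beside -0.01 for all genes. The sums of the single-drug differences had medians of 1.08 and 1.11, and the combination 1.24 and 1.41. In each list 23 genes had a positive interaction and 0 an unadjusted p under 0.05. Most of these genes were called higher in the combination, whose level enters the interaction, so their direction carries no test. The smallest p of the interferon gamma list was that of Ido1, 0.0693 unadjusted in edgeR, with an interaction of -3.50. Ido1 was uneven within groups, as given in the closing section. The type I median turned to -0.02 with limma voom and -0.05 with the adipocyte score in the fit. Both medians turned negative without combination mouse 22, to -0.24 and -0.04. Their highest values in the fits that left out a library were 0.31 and 0.54.

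Cxcl10 (chr5:92346638-92348889, GRCm38; its exons overlap Art3 on the other strand, and the library kit does not mark strand) shows the pattern. Vehicle mice 3, 6, 21 and 29 had 9.23, 10.3, 6.24 and 14.8 CPM. Trastuzumab mice 12, 15, 20 and 24 had 19.5, 17.4, 17.7 and 12.3 CPM, and panobinostat mice 4, 7, 8 and 13 had 54.4, 48.1, 31.3 and 35.2 CPM. Combination mice 2, 11, 16 and 22 had 36.5, 96.6, 31.2 and 161 CPM. Mouse 2 lay within the range of panobinostat alone, mouse 16 just below it, mice 11 and 22 above it, and all 4 above vehicle and trastuzumab. The product of the single-drug ratios gives an expected combination level of 69.7 CPM, and the observed mean was 81.3 ± 60.8 CPM (SD, n = 4). The interaction was 0.24 (SE 0.59), a ratio of 1.18 with an interval from 0.494 to 2.82. It was -0.09 with limma voom, -0.02 with the adipocyte score, and -0.33 without combination mouse 22. The interval leaves room for a departure of about 2-fold below the expected level and of up to 2.82-fold above it.

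Other genes of the interferon lists had the same spread in the combination group. Mx1, a GTPase that restricts viruses, had 58.4, 113, 45.6 and 152 CPM in combination mice 2, 11, 16 and 22, against 48.1 to 85.6 with panobinostat, 23.1 to 30.3 with trastuzumab and 12.8 to 28.3 with vehicle. Its interaction was 0.16 (SE 0.45), and it turned to about -0.001 with limma voom and -0.01 with the adipocyte score. Cxcl11, annotated as a polymorphic pseudogene in this build, had 9.52, 36.2, 9.12 and 69.4 CPM in the same order, and an interaction of 0.16 (SE 0.78) that turned to -0.29 and -0.07 under those settings. The combination mice are split in the same way at each of these genes, with mice 11 and 22 above mice 2 and 16. Stat2 had the smallest p of the type I list, 0.231 unadjusted, with an interaction of 0.38 (SE 0.30). Its level was 109, 168, 104 and 225 CPM in the combination, 101 to 153 with panobinostat, 64.8 to 80.3 with trastuzumab and 60.7 to 92.6 with vehicle. The Stat2 interaction was 0.12 without combination mouse 22 and up to 0.54 without another library.

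Cd274, the ligand of the inhibitory receptor PD-1, had 10.4 to 11.4 CPM in vehicle, 8.52 to 18.5 with trastuzumab and 12 to 21.6 with panobinostat. Combination mice 2, 11, 16 and 22 had 16, 36.2, 14.1 and 48.7 CPM. The interaction was 0.59 (interval -0.43 to 1.62). It was 0.21 without combination mouse 22 and up to 0.86 without another library. At this gene mice 2 and 16 stood within the panobinostat range. Cxcl9 had 56.3, 163, 46.6 and 227 CPM in the combination beside 46.8 to 83.5 with panobinostat, and an interaction of 0.43 (interval -0.92 to 1.77), which was -0.05 without combination mouse 22.

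**Figure D2:**
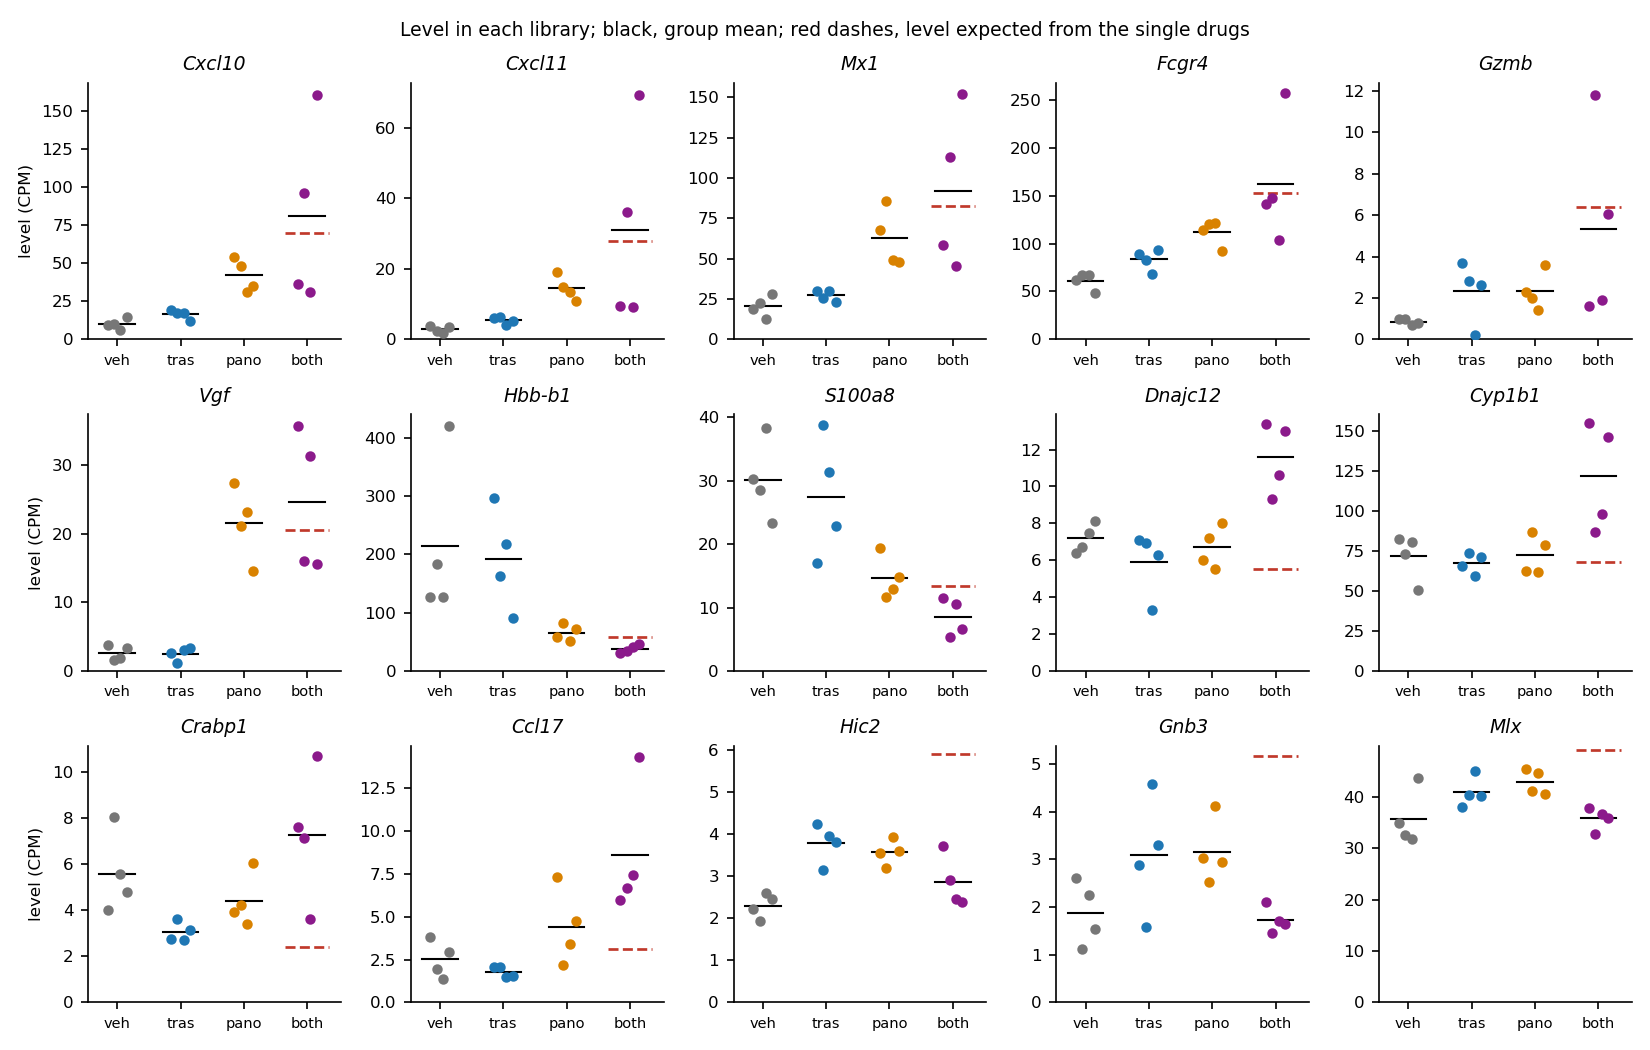
TMM-scaled CPM of 15 named genes in each of the 16 libraries, by group (veh, vehicle; tras, trastuzumab; pano, panobinostat; both, the combination), with the group mean as a black line and the level expected from the single drugs as red dashes. For Cxcl10 the 4 combination points lie at 31.2, 36.5, 96.6 and 161 CPM around an expected 69.7, while for Dnajc12 all 4 lie at 9.3 or above, over an expected 5.52.

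The same view per library was taken with list scores, the mean log2 CPM of a list's tested genes. The interferon gamma score was 5.60, 6.32, 5.31 and 6.83 in combination mice 2, 11, 16 and 22, against 5.37 to 5.91 with panobinostat, 4.56 to 5.43 with trastuzumab and 4.28 to 4.96 with vehicle. Its interaction, from the group means, was 0.12 ± 0.44 (SE), smaller than the list's median over genes. The type I score was 6.24, 7.06, 6.10 and 7.55, and its interaction was -0.01 ± 0.42, of the other sign than the list's median of 0.11. The spread between the combination mice, an SD of 0.69 in both scores, is larger than either departure.

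Antigen presentation genes were described by class. MHC class I genes present peptides from inside the cell and are induced by interferon gamma. Their median difference was 0.08 with trastuzumab, 0.12 with panobinostat and 0.42 with both, and 19 of 20 had a positive interaction, with a median of 0.19 and values from -0.06 (Calr) to 0.38 (Psmb10). Over the fits that left out a library the class I median ranged from 0.03, without combination mouse 22, to 0.39, without trastuzumab mouse 12. Psmb10 was 0.035 without combination mouse 22 and up to 0.56 without another library. MHC class II genes are those of professional antigen-presenting cells. Their median difference was 0.42 with trastuzumab, 0.20 with panobinostat and 0.59 with both, beside a sum of 0.66. Only 4 of 11 had a positive interaction, and the median was -0.02, or 0.01 when the filter was set at 10 counts in at least 4 libraries. For class II, 10 of 11 intervals lay within 2-fold, beside 73% of all genes and 89.9% of genes averaging 10 CPM or more. In the combination 8 of 11 genes were called higher, against 1.7% of all genes.

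H2-Ob, a chain of the class II peptide-loading regulator, gives a close bound. Its levels were 5.3 to 6.61 CPM in vehicle, 5.89 to 8.86 with trastuzumab and 9.49 to 12.1 with panobinostat. Combination mice 2, 11, 16 and 22 had 16.9, 12.8, 12.9 and 13.1 CPM, all above every other library. The sum of the single-drug differences was 1.07 and the combination difference 1.21 (SE 0.16). The interaction was 0.14 (SE 0.22), a ratio of 1.10 with an interval from 0.795 to 1.53.

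Fc gamma receptors bind the Fc part of antibodies such as trastuzumab, and Fcgr4 is an activating receptor of mouse macrophages. The 15 genes of the Fc receptor and signalling list had a median interaction of -0.01, of either sign across the alternatives. All 15 intervals lay within 2-fold, beside 73% of all genes and 89.9% of genes averaging 10 CPM or more. Fcgr4 had 48.4 to 67.3 CPM in vehicle, 68.7 to 93.3 with trastuzumab, 92.6 to 121 with panobinostat, and 141, 148, 104 and 257 CPM in combination mice 2, 11, 16 and 22. Its interaction was 0.09 (SE 0.29), a ratio of 1.06 with an interval from 0.692 to 1.63, and -0.23 without combination mouse 22. Fcgr2b, the inhibitory receptor, led the list with 0.37 (SE 0.26), and the 646 CPM of combination mouse 22 stood apart from 393 to 421 CPM in the other 3.

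Departures of NK cell genes were poorly bounded. NK cells kill targets coated with antibody and release interferon gamma. The 18 tested genes had a median difference of 0.99 with trastuzumab, 0.48 with panobinostat and 1.10 with both. The sum was 1.33 and the median interaction -0.28. Of the 18, 3 were positive and 0 had an unadjusted p under 0.05, beside 1.79% of all genes. An interval within 2-fold was found for 0 of them, beside 73% of all genes and 34.4% of genes below 10 CPM. Without trastuzumab mouse 12 the median was 0.19, and without panobinostat mouse 13 it was 0.03. Its lowest value without a library was -0.52. Summed NK markers were 35.9 to 63.3 CPM in vehicle, 44.1 to 173 with trastuzumab, 64.9 to 101 with panobinostat and 72.2 to 181 with the combination. The sums cover 22 markers, of which 3 averaged under 1 CPM over all libraries.

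Ncr1 had 4.82, 4.33, 3.47 and 5.84 CPM in vehicle mice 3, 6, 21 and 29, and 15.8, 8.68, 2.92 and 4.52 CPM in trastuzumab mice 12, 15, 20 and 24. It had 3.55, 4.21, 2.68 and 9.82 CPM in panobinostat mice 4, 7, 8 and 13, and 7.1, 15.1, 4.75 and 9.23 CPM in combination mice 2, 11, 16 and 22. The highest mouse of each treated group was above every vehicle mouse, and all 4 groups overlapped. The interaction was 0.02 with an interval from -1.41 to 1.45, and its sign changed in 7 of the 16 fits that left out a library. Gzmb, the protease of cytotoxic granules, had 1.61, 11.8, 1.9 and 6.07 CPM in the combination and an interaction of -0.29 (interval -2.28 to 1.71). It was the only named gene of 63 with a different sign on the linear scale, 1.52 ± 2.53 CPM (SE).

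**Figure D3:**
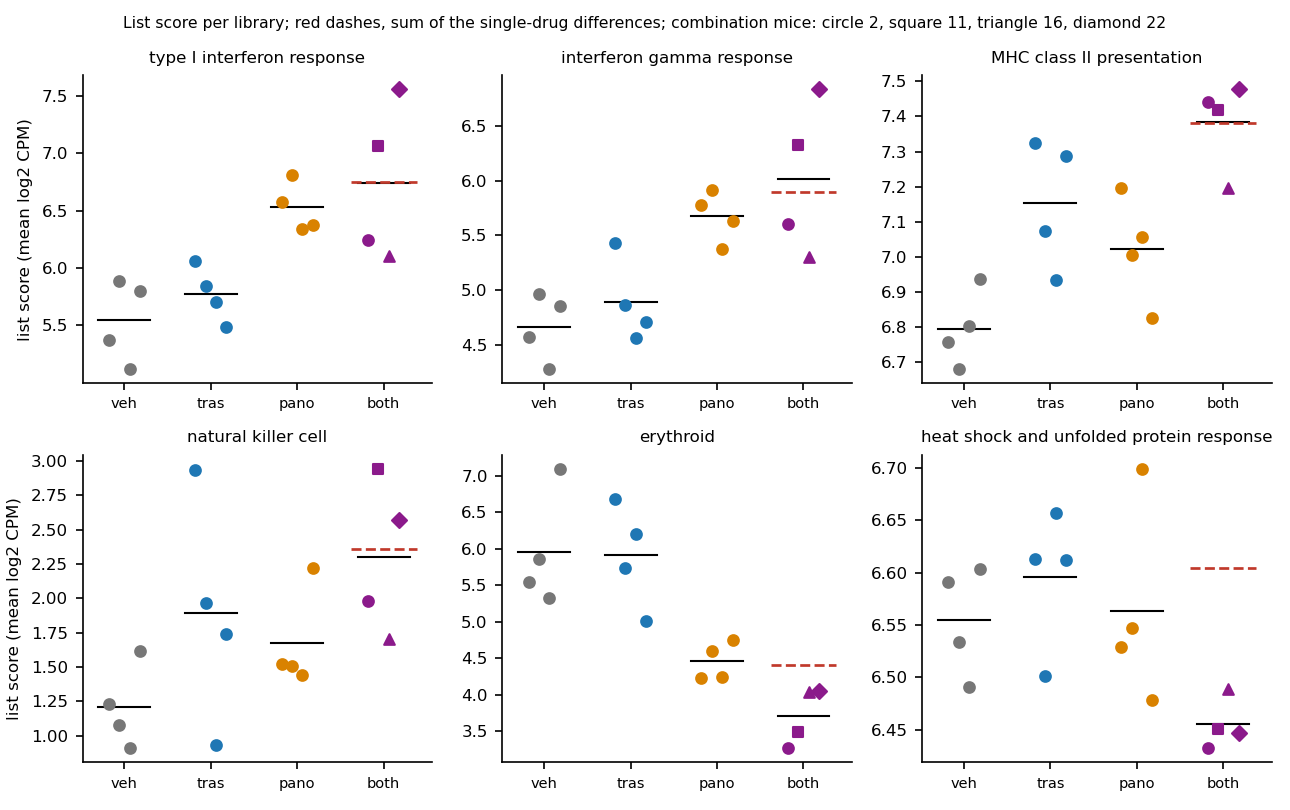
Score of 6 of the 30 gene lists (mean log2 CPM of the tested members) in each library, by group. Group means are black lines, and the sum of the single-drug differences is drawn as red dashes. Symbols mark combination mouse 2 (circle), 11 (square), 16 (triangle) and 22 (diamond): mice 11 and 22 are the higher combination mice in the interferon and natural killer cell scores, while for the heat shock list all 4 combination mice lie below the dashes.

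Genes of monocytes and dendritic cells lay on both sides of the sum. Ccr2, the receptor that brings monocytes from blood into tissue, had 209 to 277 CPM in vehicle, 387 to 465 with trastuzumab, 298 to 571 with panobinostat and 394 to 611 with the combination. The 3 treated groups overlapped, and all stood above vehicle. The combination was called higher than vehicle, by 1.00 (SE 0.17), against a sum of 1.50, and the interaction was -0.50 with an interval from -1.01 to 0.01. This was the smallest p of the macrophage and monocyte list, 0.0526 unadjusted, and its 21 genes had a median interaction of 0.11.

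Ccl17, which attracts T cells and is made by dendritic cells, had 3.81, 1.93, 1.39 and 2.92 CPM in vehicle mice 3, 6, 21 and 29 and 2.06, 2.05, 1.46 and 1.56 CPM with trastuzumab. With panobinostat it had 7.29, 2.19, 3.39 and 4.75 CPM, and in combination mice 2, 11, 16 and 22 it had 5.97, 6.68, 7.41 and 14.3 CPM. The combination libraries stood above vehicle and trastuzumab and overlapped panobinostat. The interaction was 1.43 (SE 0.56), with an unadjusted edgeR p of 0.0199. Of 24 chemokine genes, 19 were positive with a median of 0.27, which was 0.06 without combination mouse 22, 0.52 without combination mouse 2 and 0.45 without trastuzumab mouse 12. Of the 24, 3 had an unadjusted p under 0.05, beside 1.79% of all genes, and none was called. These were Ccl17, Cxcl5 (2.31), which attracts neutrophils, and Cxcl12 (0.86), a chemokine of stromal cells. Cxcl5 was low, with group means between 1.08 and 4.02 CPM. Cd86 went from group means of 31.1 to 37.5 CPM in the other groups to 60.3 CPM in the combination, with an interaction of 0.47.

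The 17 tested cytokine genes had a median interaction of 0.31, and 14 were positive. Tnf, an inflammatory cytokine, had 4.36, 8.86, 7.03 and 13.5 CPM in combination mice 2, 11, 16 and 22, against 4.01 to 6.82 with vehicle, 4.58 to 7.4 with trastuzumab and 2.36 to 5.07 with panobinostat. Its interaction was 0.97 (SE 0.44), 0.64 without combination mouse 22 and up to 1.22 without another library. The panobinostat difference was -0.56 and the combination difference 0.66, neither of them called, and the 4 groups overlapped. Of 22 listed cytokine genes in the table, these 17 passed the filter.

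Vgf was a gene of large panobinostat difference and small trastuzumab difference. It encodes a secreted neuropeptide precursor, and had 1.61 to 3.81 CPM in vehicle and 1.11 to 3.3 with trastuzumab. It had 14.6 to 27.5 CPM with panobinostat, and 35.7, 16.1, 31.4 and 15.6 CPM in combination mice 2, 11, 16 and 22. The combination difference was 3.20 (SE 0.37) against a sum of 2.93, and the interaction was 0.27 (SE 0.53). Of the 13 tested neuronal and dense-core granule genes, 9 were negative, with a median interaction of -0.12. Syt1, a calcium sensor of vesicle release, led them at -1.29 (SE 0.62), from levels between 0.321 and 3.99 CPM.

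Smoc2 and Fos fell under panobinostat alone and had interactions above 0. Each had the smallest p of a list, and the panobinostat level enters the interaction, so their direction carries no test. The 8 genes called lower with panobinostat had a median interaction of 0.20, and the 22 called higher one of -0.17. Smoc2, a matrix protein of fibroblasts, had 64.2, 70.8, 63.3 and 47.8 CPM in vehicle mice 3, 6, 21 and 29, and 39.6, 60.8, 42.3 and 56.5 CPM with trastuzumab. It had 25.4, 27.8, 23 and 24.7 CPM with panobinostat, and 32.8, 27.9, 27.4 and 30.6 CPM with the combination. Both panobinostat groups stood below the other groups and overlapped each other narrowly. The combination difference was -1.05, smaller in size than the sum of -1.59, and the interaction was 0.54 (SE 0.21, interval 0.10 to 0.97). Fos, an immediate early transcription factor, was similar. It had 13.1 to 14.3 CPM with panobinostat and 16.4 to 20 with the combination, which did not overlap, from 21.7 to 35.6 in vehicle and 17.4 to 31.6 with trastuzumab. Its interaction was 0.62 (SE 0.25), with an unadjusted edgeR p of 0.0222.

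Haemoglobin genes and S100a8 lay on the other side of the sum. All 5 tested erythroid genes and S100a8 were called lower in the combination. They were chosen with earlier results known, and the combination level enters the interaction, so their direction carries no test. Hbb-b1, a beta globin of red cells, had 127, 184, 126 and 420 CPM in vehicle, 297, 162, 218 and 91.3 with trastuzumab, 58.6, 81.4, 50.9 and 72.2 with panobinostat, and 30.5, 34.9, 41.2 and 45.8 with the combination. Every combination library was below every other library. The combination fell by 2.49 (SE 0.36) on the log2 scale against a sum of -1.86, and the interaction was -0.63 (interval -1.71 to 0.45). Reads of the near-identical copies Hbb-b1 and Hbb-b2 may be split between them. All 5 tested erythroid genes were negative, from -0.77 (Hbb-b2) to -0.47 (Alas2), and their median ranged from -1.28 to -0.28 over the fits that left out a library. S100a8, a calcium-binding protein of neutrophils, had 23.4 to 38.3 CPM in vehicle and 17 to 38.8 with trastuzumab. It had 11.6 to 19.4 CPM with panobinostat and 11.5, 5.38, 10.5 and 6.57 CPM with the combination, all below panobinostat. Its interaction was -0.68 (SE 0.38, interval -1.47 to 0.12). The neutrophil list as a whole had 4 positive and 7 negative genes, and Mmp8, a collagenase of neutrophil granules, stood at 1.52 from levels of at most 5.56 CPM.

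**Figure D4:**
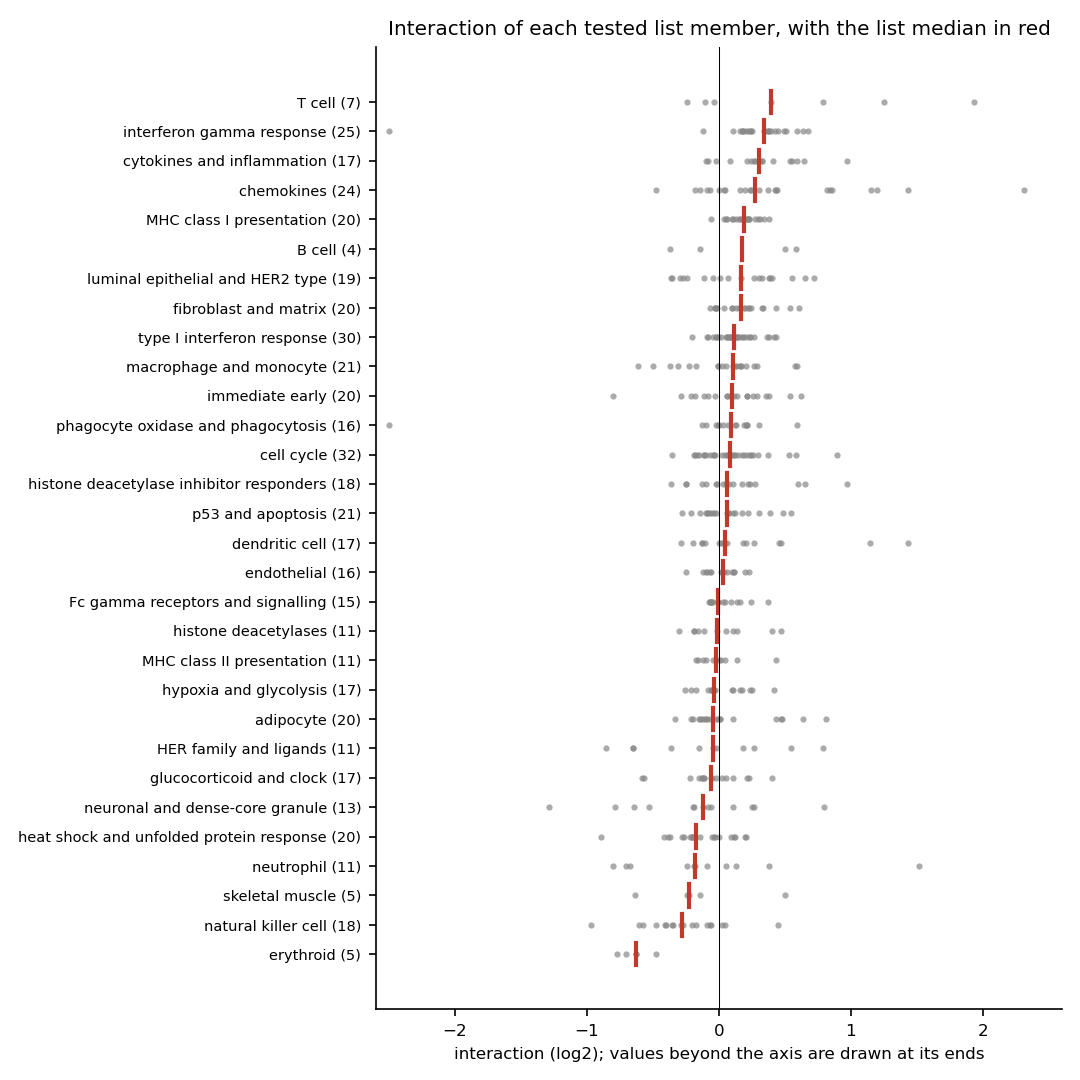
Interaction (log2) of each tested member of 30 gene lists as grey points, with the list median as a red bar and the number of tested genes in brackets; values beyond the axis are drawn at its ends. Medians run from 0.40 for 7 T cell genes to -0.63 for 5 erythroid genes, and most points lie within 1 log2 unit of 0.

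Across the 30 lists, 480 different genes were tested, and 10 of them (2.08%) had an unadjusted p under 0.05, near the 1.79% of all genes. These were Ccl17, Cd86, Cxcl12, Cxcl5, Fos, Hdac9, Mt2, Smoc2 and Tnf above the sum and Cry1 below it. Medians were positive in 17 lists and negative in 13. Among the drugs' targets, the 11 histone deacetylase genes had a median of -0.02, of either sign across the alternatives. Of their intervals, 10 lay within 2-fold, beside 73% of all genes and 89.9% of genes averaging 10 CPM or more. Hdac9, a class IIa deacetylase, led at 0.47 (SE 0.22). Cdkn1a, a cell cycle inhibitor known to be induced by deacetylase inhibitors, had an interaction of -0.10 with an interval from -0.53 to 0.34. Its levels were 33.8 to 48.3 CPM in vehicle. Combination mice 2, 11, 16 and 22 had 49.6, 45, 44.7 and 72.4 CPM, and the combination was not called against vehicle. Mouse Erbb2, whose counts may hold human reads, had -0.36 (interval -1.10 to 0.38), and the 11 HER family genes a median of -0.05, which was positive without 1 of 3 libraries. Egfr, the first receptor of that family, led the list at 0.54 (SE 0.26).

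Stress and proliferation genes had small medians. Heat shock and unfolded protein response genes had a median of -0.17, with 14 of 20 negative. Of their intervals, 16 lay within 2-fold, beside 73% of all genes and 89.9% of genes with a mean of at least 10 CPM. Their score was 6.43, 6.45, 6.49 and 6.45 in combination mice 2, 11, 16 and 22. It was 6.49 to 6.60 in vehicle, 6.50 to 6.66 with trastuzumab and 6.48 to 6.70 with panobinostat, and its interaction was -0.149 ± 0.065 (SE). The combination scores lay just below those of vehicle and trastuzumab, with 6.489 in combination mouse 16 beside 6.491 in vehicle mouse 21. They overlapped panobinostat. Their SD was 0.024, against 0.052 to 0.095 in the other groups. This is 1 of 30 list scores, and no test was made of it. Over the fits that left out a library the list's median was -0.18 to -0.10. Trib3, a pseudokinase of the stress response, led at -0.90 (SE 0.45). The 32 cell cycle genes had a median of 0.08 with 20 positive, and Cdc6, which licenses replication origins, stood at 0.89 (SE 0.46). The cell cycle median was -0.02 without combination mouse 2, -0.01 without panobinostat mouse 13 and up to 0.19 without another library. Hypoxia, p53 and endothelial genes had medians of -0.04, 0.06 and 0.03, of either sign across the alternatives. Fibroblast and matrix genes had a median of 0.17, with 15 of 20 positive.

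The genes nearest to a departure are given as values, since none was called and they were chosen by this p itself. Above the sum, in order of p, these were AL591207.1, Crabp1, Dnajc12, Reg3g, Cyp1b1, Adra2a, Cdk15, Tmppe, Fbp1 and Gpkow. Below it were Hic2, Gnb3, Cnksr2, U2af1l4, Dbndd1, Mlx, Ccnk, Bahcc1, Ccdc176 and Rtn2. All 20 kept their sign in the 26 alternatives. Those fits use the same libraries that the genes were chosen from, so this gives no support of its own. Many of the 20 genes are low. AL591207.1 had 3 to 16 reads per library and Cdk15, a cyclin-dependent kinase, 1 to 22.

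Dnajc12 (chr10:63382443-63410576, plus strand), a co-chaperone of the heat shock protein 40 family, had 6.42, 6.74, 7.46 and 8.15 CPM in vehicle and 7.12, 6.95, 3.33 and 6.26 with trastuzumab. It had 6.04, 7.23, 5.54 and 8.02 CPM with panobinostat, and 13.4, 9.3, 10.6 and 13 with the combination. The combination libraries stood above all 12 others, which overlapped among themselves. Neither single-drug difference was large, -0.27 and -0.10, and the combination difference was 0.69 (SE 0.20), not called, with an adjusted edgeR p of 0.1. The interaction was 1.05 (SE 0.30), a ratio of 2.07 with an interval from 1.34 to 3.20, and between 0.88 and 1.18 over the fits that left out a library. These levels rest on 16 to 103 reads per library.

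Cyp1b1 (chr17:79701537-79715061, minus strand), whose promoter is printed above, oxidises steroid hormones and foreign compounds. It had 82.7, 72.9, 80.3 and 50.6 CPM in vehicle, 65.4, 73.6, 59.3 and 70.9 with trastuzumab, and 62.2, 87, 61.5 and 78.7 with panobinostat. Combination mice 2, 11, 16 and 22 had 155, 86.6, 98.1 and 146 CPM. Panobinostat mouse 7, at 87 CPM, overlapped the lowest combination mouse. Both single-drug differences were near 0, -0.09 and 0.02, while the combination rose over vehicle by 0.77 (SE 0.19), with an adjusted edgeR p of 0.043. The interaction was 0.83 (SE 0.27), a ratio of 1.78 with an interval from 1.20 to 2.64. On the linear scale the combination exceeded the expected level by 53.4 ± 19.9 CPM (SE). Of the named genes nearest to a departure, it had the most reads, 285 to 1157 per library, of those with a value above 0.8.

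Crabp1 and Reg3g had lower group means with each single drug than with vehicle or the combination. Crabp1, a carrier of retinoic acid, had 4.01 to 8.03 CPM in vehicle, 2.71 to 3.63 with trastuzumab, 3.39 to 6.06 with panobinostat, and 7.59, 7.12, 3.61 and 10.7 CPM in combination mice 2, 11, 16 and 22. Its interaction was 1.61 (SE 0.43), while the combination difference from vehicle was 0.39 (SE 0.28). Reg3g, an antibacterial lectin, had 8.23, 8.35, 9.02 and 1.84 CPM in vehicle mice 3, 6, 21 and 29, 1.23 to 4.11 CPM over the 8 single-drug libraries, and 4.52, 3.63, 3.42 and 10.1 CPM in the combination. For these genes the vehicle and combination libraries overlapped.

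Hic2, Gnb3 and Mlx had higher group means with each single drug than with vehicle or the combination. Hic2 (chr16:17233572-17263430), a transcriptional repressor, has exons that overlap Gm26635 on the other strand and Gm49573 on the same strand. Its levels were 2.21, 1.93, 2.6 and 2.46 CPM in vehicle and 4.25, 3.16, 3.96 and 3.82 with trastuzumab. It had 3.55, 3.2, 3.93 and 3.6 CPM with panobinostat, and 3.71, 2.91, 2.47 and 2.4 with the combination. Each single-drug group stood above vehicle, and the combination overlapped all 3. The interaction was -1.03 (SE 0.29), a ratio of 0.489 with an interval from 0.320 to 0.748, from 11 to 31 reads per library. Gnb3, a G protein beta subunit, had an interaction of -1.57 (SE 0.46). It had 1.45 to 2.1 CPM in the combination, 2.52 to 4.11 with panobinostat, 1.58 to 4.58 with trastuzumab and 1.12 to 2.61 in vehicle, so both single-drug groups overlapped vehicle. Mlx, a partner of glucose-sensing transcription factors whose exons overlap Psmc3ip, was well expressed. It had 31.9 to 43.7 CPM in vehicle, 38 to 45 with trastuzumab, 40.6 to 45.5 with panobinostat and 32.8 to 37.9 with the combination, below both single drugs. The interaction was -0.45 (SE 0.15).

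**Figure D5:**
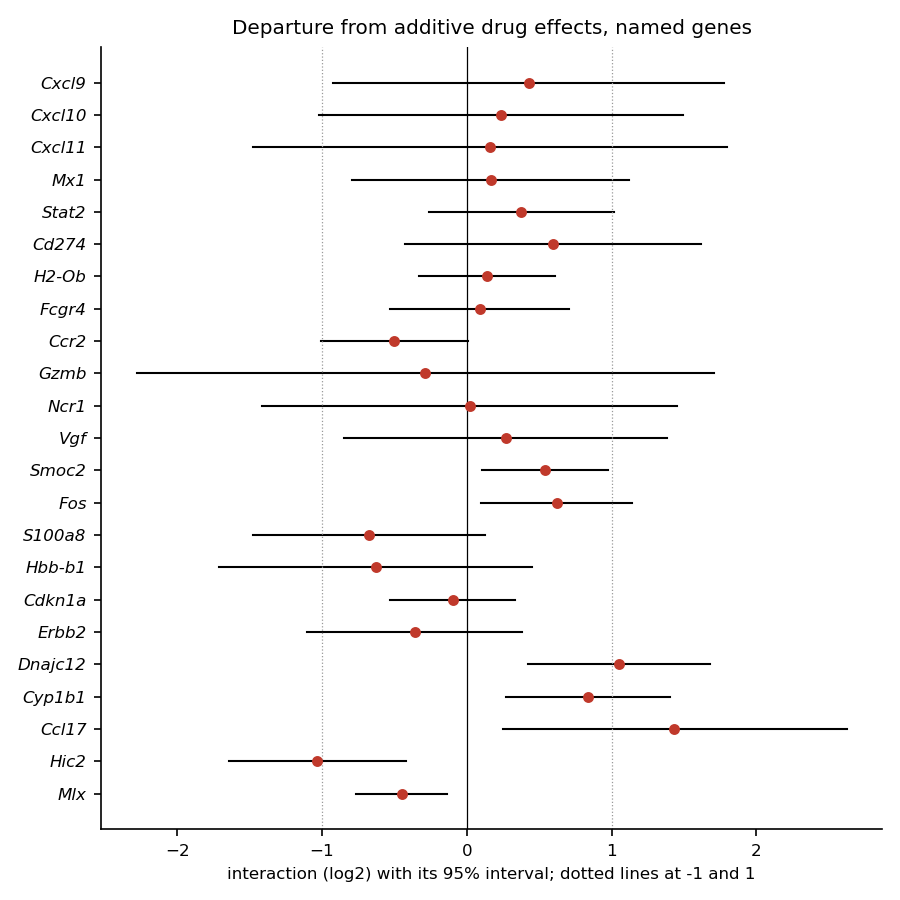
Interaction (log2) of 23 named genes with the 95% interval from edgeR's fit, and dotted lines at -1 and 1. The intervals of Fcgr4, H2-Ob and Cdkn1a lie within the dotted lines, those of Cxcl11 and Gzmb reach beyond both, and 5 lie wholly to the right and 2 wholly to the left of 0 before any adjustment.

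On the linear scale, where additivity means that the drugs' CPM differences add, 62 of the 63 named genes had the same sign as on the log scale. The departure exceeded 2 SE for 27 of them, which is a description and not a test. Of these named genes, 20 were chosen for a small p, and others as the smallest p of a list. For Cxcl10 the linear departure was 32.5 ± 31.0 CPM (SE) and for Fcgr4 28.2 ± 34.3 CPM.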

How the data were processed

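The file deposited by the authors holds unnormalized counts of mouse genes in 16 whole tumours. CASAVA 1.8.2, TopHat2, HTSeq and build mm10 are named in the submitters' processing notes. The library kit does not mark strand. The handling of human reads is not given in the sources used here. For 1327 of 24681 symbols a dot stood for the count in all 8 panobinostat-treated libraries. These were left out, and 0 of them would pass the filter if read as 0.

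The 23354 other genes were filtered with filterByExpr, scaled by TMM and fitted in edgeR 4.0.16 (R 4.3.3) with 1 mean per group over all 16 libraries. The interaction was combination minus panobinostat minus trastuzumab plus vehicle. Intervals at 95% used the Wald SE of this contrast with the moderated spread. The biological coefficient of variation was 0.183. Each pair of replicates differed beyond sampling noise (chi-square per degree of freedom 4.06 to 34.2) and counted as separate samples. Mouse numbers occur once, so no library was paired. DESeq2 1.42.0, limma 3.58.1, other scalings and filters, 2 covariates and leaving out each library were alternatives. Totals over every given value, and the recounts of genes called against vehicle and of bounded intervals, were added after the data were seen.

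Named genes were those called, or else the 10 of smallest interaction p in each direction (at least 1 CPM in the highest group, loci whose names follow the patterns of predicted genes, such as Gm and Rik, skipped, which does not cover the clone-named AL591207.1), the gene of smallest p in each of 30 lists, and 15 genes always included. Genes outside this rule (Cd86, Cxcl5, Cxcl12, Itih2, Gm17131, Gpr31b, Gm12895, Gamt, Mcc and the largest values in the closing section) were chosen after their values were seen. The members, the lists and the rule were chosen with earlier results of these data known. List scores are mean log2 CPM with a prior count of 2.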

Additional observations from a re-analysis of the deposited data

Results flagged for a closer look

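Within groups of 4 libraries, a library was singled out where its gap to the nearest of the other 3, as a share of the group's range, exceeded Dixon's 95% critical value. This was examined for the 63 named genes in 4 groups, 252 groups in all, of which 14 were singled out. Chance alone flags about 1 in 20 groups.

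Ido1, an enzyme that breaks down tryptophan, stood apart in 3 groups. Trastuzumab mouse 12 had 35.6 CPM against at most 2.26 in the other 3 mice, panobinostat mouse 7 had 46.3 CPM against at most 8.68, and combination mouse 2 had 15.3 CPM against at most 2.66. Vehicle mice had 1.56 to 3.84 CPM. The Ido1 interaction was -3.50 with an interval from -7.36 to 0.37, and it ranged from -5.27 to -0.26 over the fits that left out a library. Cd28, a co-stimulatory receptor of T cells, had 8.02 CPM in panobinostat mouse 13 against at most 0.841 in the others of that group.

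Reg3g had 1.84 CPM in vehicle mouse 29, with the others at 8.23 to 9.02, and 10.1 CPM in combination mouse 22, with the others at 3.42 to 4.52. Tmppe, which shares exons with Glb1 on the same strand, had 12.5 CPM in vehicle mouse 29 (others 16.9 to 17) and 16.1 CPM in combination mouse 11 (others 13.7 to 13.9). Ccdc176 had 1.77 CPM and Hdac9 11.9 CPM in vehicle mouse 6. Cdh1, an epithelial adhesion molecule, had 46.8 CPM in vehicle mouse 21, with the others at 17.8 to 20.9.

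Fcgr2b had 646 CPM in combination mouse 22 (others 393 to 421), H2-Ob 16.9 CPM in combination mouse 2 (others 12.8 to 13.1) and Cdkn1a 53.3 CPM in trastuzumab mouse 12 (others 45.7 to 46.9).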

How the results depend on the processing

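No gene was called for the interaction in any of the 26 alternatives: DESeq2, limma voom, 2 other scalings, 2 other filters, robust estimation, 2 covariates, other library totals and leaving out each of the 16 libraries. The median interaction over all genes stayed between -0.02 and 0.03. No paired analysis was possible because each mouse number occurs in 1 library only.

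The count at an unadjusted p under 0.05, 279 in the report, was 580 of 23354 genes with no filter on low counts. Leaving out a library gave 179 to 733. It moved by over 1.5 times without vehicle mouse 3 (447), 6 (179) or 29 (422), panobinostat mouse 7 (435), 8 (185) or 13 (436), and combination mouse 16 (733). The count of intervals within 2-fold ranged from 10646 to 11579 without a library and from 11288 to 12531 under the other settings.

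Counts against vehicle moved more. The combination count of 343 was 537 with DESeq2, 801 with the adipocyte score, 78 with the luminal epithelial score and 202 to 395 without a library (210 without vehicle mouse 6, 202 without combination mouse 11). The panobinostat count of 30 was 154 with DESeq2, 3 with limma voom, 46 with total-count scaling, 199 with the adipocyte score, 11 with the luminal score and 3 to 72 without a library. The trastuzumab count of 0 was 12 with DESeq2 and 0 to 1 without a library. The cause was not tested.

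Of the named genes, 56 of 63 kept the sign of their interaction in every alternative. Genes named for a small p in these libraries would mostly do so, and the count gives them no support. Cxcl10 was -0.091 with limma voom and -0.024 with the adipocyte score, Cxcl11 -0.291 and -0.071, and Mx1 -0.001 and -0.011. Ncr1 was -0.022 with the adipocyte and -0.052 with the luminal score. Without a library, Cxcl9 ranged from -0.049 to 0.811, Cxcl10 from -0.333 to 0.516, Cxcl11 from -0.606 to 0.494, Mx1 from -0.189 to 0.391, Gzmb from -0.968 to 0.058, Ncr1 from -0.312 to 0.629 and Fcgr4 from -0.225 to 0.255. The lowest values of Cxcl9, Cxcl10, Cxcl11, Mx1 and Fcgr4 were those without combination mouse 22. Without a library, 5 list medians moved by more than the spread between replicates: T cell genes to 1.09 and hypoxia genes to 0.12 without trastuzumab mouse 12, erythroid genes to -1.28 without vehicle mouse 29, heat shock genes to -0.10 without panobinostat mouse 8 and neuronal genes to -0.32 without combination mouse 16. With 4 mice per group, genes below about 10 CPM were seldom bounded within 2-fold.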

Other observations

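The genes below had values among the farthest from 0 of all tested genes. They were chosen after their values were seen, and none was called. Krt10, a keratin of cornified epidermis, had an interaction of 4.18, from 165 CPM in vehicle mouse 21 and at most 4.8 CPM in every other library. Dmkn, an epidermal secreted protein, had 4.05 from 49.8 CPM in the same vehicle mouse and at most 3.03 elsewhere. Dsc3, a desmosomal cadherin of stratified epithelium, had 3.61, with 13.4 CPM in vehicle mouse 21 and 7.7 CPM in combination mouse 11.

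Marco, a scavenger receptor of macrophages, had -4.08, with 22.3 CPM in trastuzumab mouse 12, 20.5 in panobinostat mouse 13 and 13.7 in combination mouse 11. In the other 13 libraries it was 0 to 1.84 CPM. Muc13, a mucin of epithelia, had -3.85, with 0 to 1.39 CPM in vehicle and values between 3.43 and 10.2 CPM in trastuzumab mice 12 and 20, panobinostat mice 7 and 8 and combination mouse 2, and Wfdc12, a secreted protease inhibitor, had -3.80 with 25.7 CPM in panobinostat mouse 13. Mfsd2a, a lipid transporter, had -2.83. It had 0.769 to 1.21 CPM in vehicle, 4.8, 1.26, 7.29 and 1.74 with trastuzumab, 0.533, 8.58, 15.7 and 0.491 with panobinostat, and 4.2, 5.38, 3.23 and 1.01 with the combination.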
